A study of Mus musculus with 12 samples.

Results

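The response to ID8 tumour challenge in Tim4-deficient macrophages was measured as 6 of the 12 RNA-seq libraries of the series: 3 Tim4KO ID8 libraries against 3 Tim4KO naive libraries. The libraries were chosen by their labels and not by any measured value. All came from large peritoneal macrophages (LPM), which reside in the peritoneal cavity of the mouse. They were sorted from females as F4/80-high, MHC class II-low cells. Tim4KO naive mice carried the Tim4 deletion and received no tumour cells. Tim4KO ID8 mice carried the same deletion, were 8 weeks old when ID8ZGO cells were injected into the peritoneal cavity, and gave their macrophages 24 h later. ID8ZGO is a form of the mouse ovarian tumour line ID8 that expresses the fluorescent protein ZsGreen and ovalbumin (OVA). Only ZsGreen-positive LPM were taken after the challenge, while no such gate could apply to naive cells, so the injection and the selection of macrophages that carried tumour material cannot be told apart here. The deleted allele, the age of the naive mice and whether each library was 1 mouse or a pool are not given in the sources used here, so p-values measure the spread between libraries. WT naive and WT ID8 libraries, 3 of each and treated in the same way, entered the fit and served for comparison.

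Tim4, encoded by Timd4, is a receptor that tethers dying cells by binding phosphatidylserine on their surface, and resident peritoneal macrophages are known for high levels of it. Tethered cells are engulfed with the help of other receptors and the actin cytoskeleton and are broken down in the lysosome. Peptides from engulfed proteins can reach MHC class II in the endosome, or MHC class I after the proteasome and the ER loading machinery have acted on them, which is called cross-presentation. The series asked how the transcriptional response of LPM to tumour uptake depends on Tim4.

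Timd4 itself checked the labels. In Tim4KO naive cells it stood at 7.71, 7.32 and 7.21 CPM (counts scaled to library totals with TMM factors), and in the 6 WT libraries between 882 and 1489 CPM. The remaining Timd4 signal was lower after challenge, at 1.92, 1.85 and 1.38 CPM, a log2 change of -2.13, SE 0.23 (adjusted p = 3.80e-05). Every adjusted p below comes from edgeR's quasi-likelihood test, and a gene was called at an adjusted p under 0.05. The adjustment was over 15943 genes with all libraries. In fits with a Tim4KO library left out the filter was run anew, and it was over 16826 to 17391 genes. The log2 change is always ID8 minus naive, and SE is its standard error.

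Sequencing depth ran from 7358559 to 16446271 counts in the naive libraries and from 10665584 to 17495710 in the ID8 libraries. Counts in olfactory and vomeronasal receptor genes, used as a measure of background, summed to 357.5, 267 and 449 CPM in the naive libraries and to 41.9, 362 and 292 CPM in the ID8 libraries, so ID8 library 1 held the least of it. LPM markers were present in all libraries: Gata6, the transcription factor that defines these cells, lay between 129 and 168 CPM, and Adgre1, which encodes F4/80, between 3067 and 4648 CPM. Summed over 8 LPM markers the level was 7456 to 7836 CPM in naive and 9749 to 10055 CPM in ID8 libraries. Of these markers 2 were called higher (Icam2 and Itgam) and 2 lower (Timd4 and Mertk). Adgre1, the largest part of the sum, was not called (adjusted p = 0.197). Markers of small peritoneal macrophages and dendritic cells (8 genes) summed to 68.0 to 87.5 CPM in naive and 44.4 to 55.0 CPM in ID8 libraries. Those of monocytes (4 genes) summed to 69.7 to 92.6 and 44.3 to 57.7 CPM, while Ly6c2 among them was higher but not called (adjusted p = 0.0790). Neutrophil markers (9 genes) moved in different ways. Ly6g, Camp and Ngp stayed at or below 0.410 CPM in each of the 6 libraries, and Ltf at or below 0.831 CPM. S100a8 rose from 7.38, 6.26 and 4.79 to 14.1, 18.7 and 14.8 CPM (adjusted p = 0.00802). Retnlg rose from 0.246, 0.266 and 1.86 to 11.9, 9.14 and 5.01 CPM (adjusted p = 0.0173, and 0.0847 without naive library 2). S100a9 and Cxcr2, at or below 2.08 CPM in all 6 libraries, were not called (adjusted p = 0.384 and 0.387), and Csf3r fell. Markers of epithelial, mesothelial or tumour cells (9 genes) summed to 7.79 to 11.2 CPM in naive and to 1.38 to 6.09 CPM in ID8 libraries, and those of mast cells (5 genes) to 13.2 to 33.3 and 6.17 to 9.45 CPM. In bulk samples, fewer cells of a type and less RNA per cell cannot be told apart.

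Of the 15943 genes tested, 2642 were called in Tim4KO cells (16.6%), 1836 of them higher after challenge (11.5%) and 806 lower (5.06%). The libraries of the 2 conditions did not overlap at 6673 genes (41.9%). A change of at least 2-fold was reached by 468 called genes that rose (2.94%) and by 279 that fell (1.75%), and one of at least 4-fold by 96 and 50. With upper-quartile scaling in place of TMM, 48.7% of the 2716 called genes were higher, against 69.5% of the 2642 with TMM, and the median log2 change over all genes moved from -0.05 to -0.17. Changes are therefore best read against that median.

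**Figure D1:**
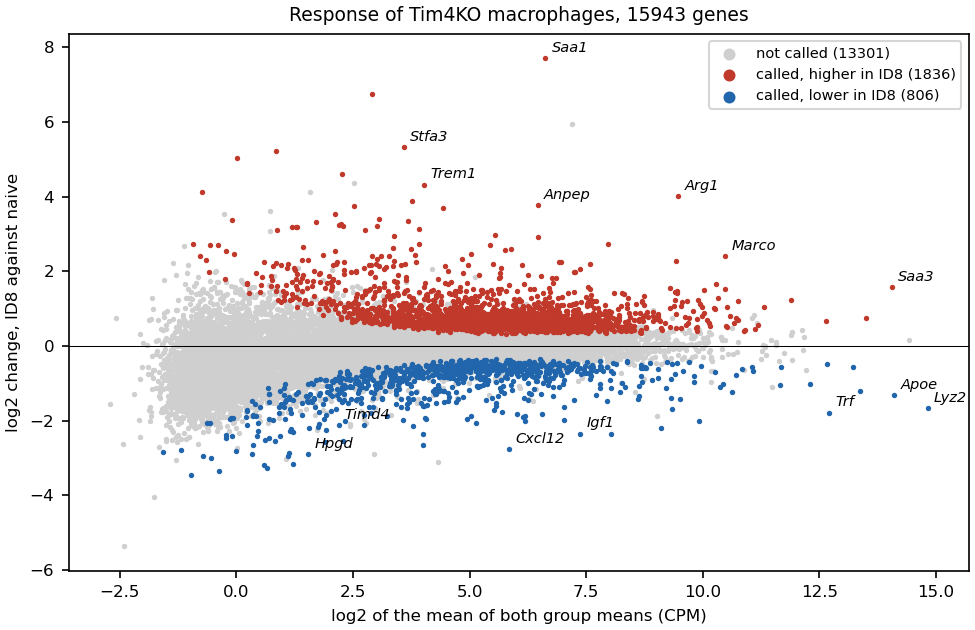
Log2 change of Tim4KO macrophages (y axis, ID8 against naive) against the log2 of the mean level (x axis, CPM) for the 15943 genes tested, each point 1 gene. Red points are the 1836 genes called higher and blue points the 806 called lower. Saa1 has the largest change among the labelled genes, at 7.71, and the most abundant labelled genes, Lyz2 and Apoe, lie on the lower side.

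Called genes depended on single libraries in number more than in direction. Leaving out naive library 2 left 1222 calls, and leaving out naive library 3, ID8 library 1, ID8 library 2 or ID8 library 3 left 1484, 1432, 1420 or 1666. Without naive library 1 the number was 2845. A set of 1031 genes (39.0% of the calls), 818 higher and 213 lower, was called in the same direction with all libraries and in each of those 6 fits. Naive libraries spread more than ID8 libraries: over the 10177 genes whose normalized count averaged 50 or more, the median coefficient of variation was 13.5% among the 3 naive and 7.44% among the 3 ID8 libraries. At 45.2% of these genes naive library 1 was the naive library farthest from the other 2. Called genes whose fold change is given below kept their call in each of the 6 fits unless another value stands beside them, and a list's count above 1 is given with values from those fits where it moved by more than 1.5 times. Counts of list members are best read against the 11.5% of all genes called higher and the 5.06% called lower.

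The 12 largest rises included acute-phase proteins (Saa1 and Lcn2), protease inhibitors (Timp1, Stfa3 and Ctla2a) and surface proteins (Trem1, Anpep and Ly6a). In the list of acute-phase proteins 4 of 10 tested genes rose and 1 fell, and in that of stefins and other protease inhibitors 6 of 14 rose and 2 fell, the falls being 1 in each fit with a Tim4KO library left out. Saa1, an acute-phase apolipoprotein carried on HDL, read 1.07, 0.666 and 0.957 CPM in naive and 184, 218 and 188 CPM in ID8 cells (log2 change 7.71, SE 1.01, adjusted p = 0.00153). The 2 groups did not overlap, as the choice of the 12 genes required, and the 3 ID8 libraries lay close together. Stfa3, a stefin that inhibits cysteine proteases, went from 0.820, 0.666 and 0.338 to 22.6, 25.6 and 22.4 CPM (log2 change 5.33, SE 0.36, adjusted p = 1.30e-06). Trem1, a receptor that amplifies inflammatory signals in myeloid cells, rose from 1.72, 1.07 and 1.69 to 34.4, 27 and 31.8 CPM (4.32, SE 0.37, adjusted p = 1.77e-05). Lcn2, which binds bacterial siderophores, rose from 1.80, 1.73 and 1.69 to 28.4, 23.5 and 25 CPM (3.88, SE 0.32). Arg1, the arginase that splits arginine into ornithine and urea, was already expressed in naive cells at 109, 77.5 and 60.7 CPM and reached 1175, 1583 and 1249 CPM (4.02, SE 0.27, adjusted p = 1.30e-06). Anpep, the surface aminopeptidase CD13, had the smallest adjusted p of all genes, 3.30e-08, with 13, 11.7 and 11.2 CPM in naive and 174, 132 and 186 CPM in ID8 libraries (3.78, SE 0.18). The neutrophil markers Retnlg and S100a8 were also higher after challenge, by 3.27 and 1.37 on the log2 scale, while Ly6g, Camp and Ngp stayed at or below 0.410 CPM. Their part in the rises of these genes was not tested.

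Some of the 12 genes were close to silent in naive cells. Timp1, an inhibitor of matrix metalloproteinases, had 0, 0 and 5 counts in the naive libraries and 15.8, 11.1 and 18.2 CPM in the ID8 libraries. Its fitted log2 change of 6.76 became 10.60 without naive library 3, since no naive count was then left. Ctla2a, another protease inhibitor, read 0.328, 0.399 and 0.394 CPM in naive and 9.07, 6.37 and 12.4 CPM in ID8 libraries (4.61, SE 0.90), and its adjusted p was 0.0521 without naive library 3. The metallothionein Mt2, which binds zinc and copper, rose from 0.246, 1.20 and 0.957 to 11.5, 7.94 and 12.3 CPM (3.76, SE 0.46), but 73.5% of its exonic bases overlap an antisense gene. Vat1 (3.69, SE 0.38) and the small heat shock protein gene Hspb1 (3.54, SE 0.43) followed, the latter sharing 46.4% of its 75-base stretches with the pseudogene Hsp25-ps1. Ly6a, which encodes the surface protein Sca-1, read 3.03, 0.666 and 0.563 CPM in naive and 10.4, 21.8 and 13.5 CPM in ID8 cells (3.40, SE 0.91). The adjusted p of Ly6a was 0.0348 with all libraries and reached 0.145 when single libraries were left out. It was called in 1 of the 6 fits with a Tim4KO library left out.

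**Figure D2:**
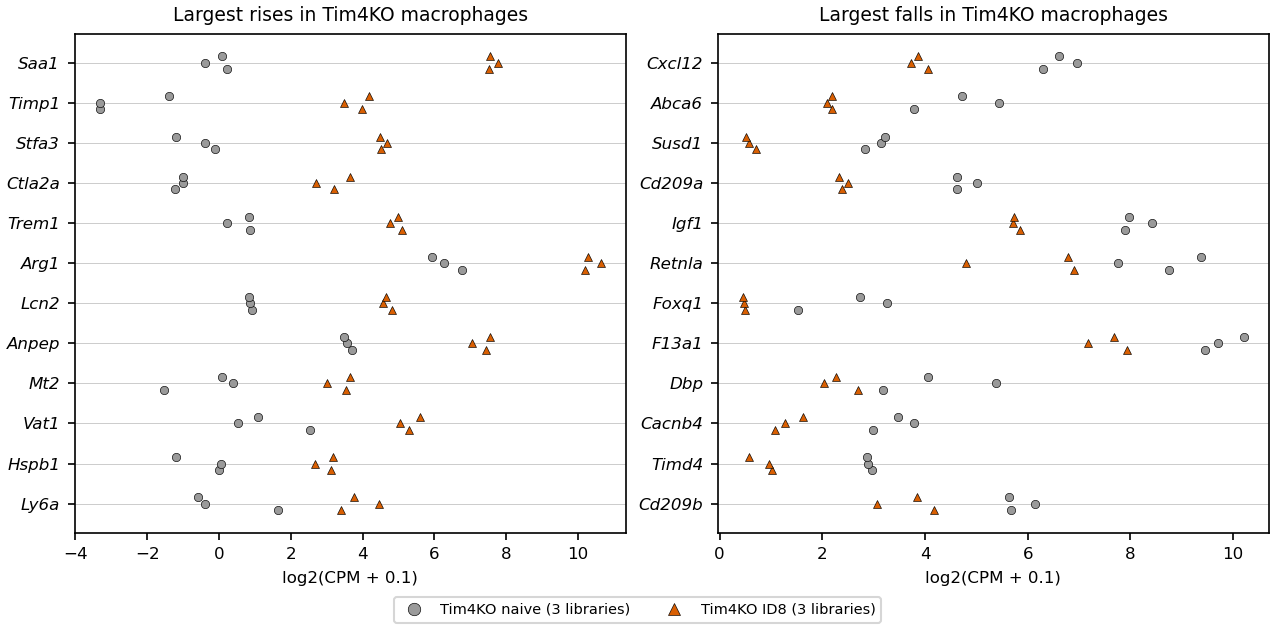
Level of the 12 genes with the largest rises (left) and the 12 with the largest falls (right) in each Tim4KO library, as log2(CPM + 0.1). Grey circles are the 3 naive and orange triangles the 3 ID8 libraries, and the groups do not overlap for any of the 24 genes, which the choice of the genes required.

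The largest falls included a chemokine, a growth factor and C-type lectins. Cxcl12, the chemokine that binds CXCR4, dropped from 79.1, 125 and 97.9 to 16.6, 13.2 and 14.5 CPM (log2 change -2.76, SE 0.20, adjusted p = 1.30e-06). Igf1, insulin-like growth factor 1, dropped from 239, 343 and 250.1 to 57.9, 52 and 53 CPM (-2.35, SE 0.21, adjusted p = 8.67e-06). The ID8 libraries of both genes lay within a narrow band, below all naive libraries as the choice of these genes required. The C-type lectins Cd209a (24.4, 32.1 and 24.4 to 5.15, 5.54 and 4.90 CPM, -2.37, SE 0.25) and Cd209b (51.1, 70.8 and 49.4 to 17.9, 8.31 and 14.3 CPM, -2.07, SE 0.24) also fell. F13a1, the A subunit of coagulation factor XIII, fell from 702, 839 and 1181 to 243, 145 and 206 CPM (-2.20, SE 0.37). Susd1 (-2.55, SE 0.47), the transcription factor gene Foxq1 (-2.26, SE 0.48) and the calcium channel subunit gene Cacnb4 (-2.13, SE 0.27) were lower by similar factors at low levels. For Foxq1, 66.1% of the exonic bases overlap a gene on the other strand. The lipid transporter gene Abca6 (-2.66, SE 0.67) and Retnla, a secreted marker of alternative activation (433, 215 and 663 to 119.7, 27.6 and 109.9 CPM, -2.35, SE 0.62), were called with all libraries, at adjusted p of 0.0245 and 0.0341. Each kept the call in only 1 of the 6 fits with a Tim4KO library left out, and its adjusted p went up to 0.127.

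Among the most abundant RNAs of these cells, Lyz2, the macrophage lysozyme, fell from 47486, 44456 and 40527 to 14712, 12996 and 13834 CPM (-1.67, SE 0.15, adjusted p = 6.56e-06). Apoe, the apolipoprotein that macrophages secrete, fell from 26053, 26238 and 23249 to 10527, 9371 and 10315 CPM (-1.32, SE 0.17). Trf, transferrin, fell from 10085, 11436 and 9400.3 to 3036, 2969 and 2966 CPM (-1.79, SE 0.14), with 63.5% of its exonic bases shared with an overlapping gene model, Gm20425. Lars2, the mitochondrial leucyl-tRNA synthetase, fell by 1.20 on the log2 scale (adjusted p = 0.00012). Against these, Saa3, the serum amyloid A made by macrophages, rose from 10394, 8382 and 6793 to 28773, 18421 and 29114 CPM (1.58, SE 0.33, adjusted p = 0.00766). Actb (0.74, SE 0.15), the chemokine gene Ccl6 (2382, 1783 and 2574 to 5732, 4893 and 5293 CPM, 1.24, SE 0.19), the cathepsin gene Ctsb (0.68, SE 0.14) and the proteoglycan gene Sdc3 (1.03, SE 0.14) were the other abundant genes that rose.

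Receptors and bridging proteins for engulfment moved in both directions. Of 28 tested genes, 8 rose and 6 fell, with a median log2 change of 0.10. The fits without 1 Tim4KO library gave 5 to 7 rises and 3 to 6 falls, the fewest without ID8 library 1 and ID8 library 2. The scavenger receptor gene Marco went from 454, 470.0 and 444 to 2602, 1971 and 2636 CPM (2.40, SE 0.22, adjusted p = 9.45e-06). Cd5l, a secreted scavenger protein of tissue macrophages, rose from 613, 607 and 579 to 2134, 1484 and 2043 CPM (1.65, SE 0.15), and Cd68, a late endosomal glycoprotein, from 659, 512 and 529.6 to 1382, 1352 and 1289 CPM (1.24, SE 0.13). Mfge8, a secreted bridge between phosphatidylserine and integrins, fell from 71.7, 73 and 69.6 to 21.8, 24.7 and 24.1 CPM (-1.60, SE 0.19, adjusted p = 9.26e-05). Mertk, a receptor tyrosine kinase that recognises dying cells through bridging proteins, read 169, 217 and 166 CPM in naive and 129.7, 132 and 130.3 CPM in ID8 cells (-0.49, SE 0.12, adjusted p = 0.0126). The adjusted p of Mertk reached 0.124 without naive library 2, and the gene was named after its values were seen.

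Actin genes rose broadly. Of 27 tested members, 20 were called higher and 1 lower, against 11.5% and 5.06% of all genes, and the list's median log2 change was 0.60. Capg, which caps actin filament ends, rose from 389, 277 and 292 to 978, 903 and 909 CPM (1.54, SE 0.17, adjusted p = 4.12e-05). Vim, the intermediate filament protein vimentin, rose from 278, 218 and 254 to 617, 479.6 and 631 CPM (1.20, SE 0.16), Pfn1, profilin, from 989.8, 713 and 706 to 1688, 1609 and 1576 CPM (1.02, SE 0.15), and Flna, which crosslinks filaments, from 831, 763 and 843 to 1655, 1567 and 1653 CPM (1.0, SE 0.15). Actg1, cytoplasmic gamma actin, had 1.10, SE 0.13 and shares 33.5% of its 75-base stretches with other loci, mostly pseudogenes. Calls in this list ranged from 11 without naive library 2 to 22 without naive library 1.

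Integrins and adhesion genes were higher in 10 and lower in 2 of 25 cases, and with 1 Tim4KO library left out in 6 to 8 and in 0 or 1. Itgam, the alpha chain of complement receptor 3, rose from 1334, 1309 and 1297 to 2061, 2003 and 2360.0 CPM (0.71, SE 0.14), although 68.7% of its exonic bases overlap the gene model Gm49368. Icam2 (911, 645 and 617 to 1485, 1211 and 1345 CPM, 0.89, SE 0.16) and Itgb7 (264, 203 and 163 to 452, 465 and 446 CPM, 1.12, SE 0.20) were higher as well. Itga5, the fibronectin receptor chain, had 0.56, SE 0.12 and an adjusted p of 0.052 without naive library 3. Of 25 identity genes of LPM 4 were higher and 5 lower, and the latter count was 1 without naive library 2, 2 without ID8 library 1 or ID8 library 2, and 8 with background counts as a covariate.

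Genes of the lysosome were called higher in 13 of 30 and lower in 3 (5 with upper-quartile scaling), 53.3% in all against 16.6% of all genes. Gla, the alpha-galactosidase, rose from 11.6, 10.7 and 11.8 to 37.5, 35.6 and 37.9 CPM (1.70, SE 0.18, adjusted p = 3.92e-05), Cd63, a lysosomal tetraspanin, from 89.6, 101 and 90.7 to 291, 242 and 301 CPM (1.57, SE 0.21), and Ctsz, cathepsin Z, from 475, 430.2 and 401 to 932, 876 and 909 CPM (1.06, SE 0.12). Hexa, the hexosaminidase alpha subunit, went the other way, from 562, 597 and 554 to 229, 206 and 235 CPM (-1.35, SE 0.13, adjusted p = 1.77e-05), as did the mannosidase gene Man2b1 (1646, 1931 and 1851 to 881, 824 and 830.2 CPM, -1.10, SE 0.13). These 5 genes were picked by smallest p among the called members, so the lack of overlap between their groups follows from the choice.

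Proteasome subunits moved together. Of 25 tested, 20 rose and 0 fell, with a median log2 change of 0.69 against -0.05 over all genes. Psma6, an alpha ring subunit, rose from 156, 101 and 97.3 to 266, 268 and 253 CPM (1.15, SE 0.17, adjusted p = 0.000496). Psmd14, the deubiquitinase of the regulatory particle, rose from 79.9, 48.6 and 51.6 to 136, 138 and 123 CPM (1.14, SE 0.20), and the ATPase gene Psmc5 from 109, 67 and 72 to 172, 186 and 168 CPM (1.08, SE 0.18). Psmb5, a catalytic subunit, had 1.23, SE 0.19 and shares 36.8% of its 75-base stretches with other loci. In each of these genes naive library 1 was the highest naive library. The number of calls was 22 without naive library 1, and 12 without naive library 2 or naive library 3. Short genes were called higher more often in these data. When genes were divided into 3 equal groups, the share was 15.2% among the shortest by exonic length and 7.41% among the longest. By GC content of the transcript it was 16.7% in the highest group and 6.43% in the lowest. Of the proteasome list 64.0% was in the shortest group. So were 88.9% of the chemokine, 80% of the acute-phase, 71.4% of the protease inhibitor and 59.3% of the actin list. The part of gene length or GC content in the result of any list was not tested.

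Other steps of MHC class I presentation changed in 6 of 23 genes, all upward (26.1%, against 11.5% of all genes called higher). Calr, calreticulin, a chaperone of the peptide-loading complex, rose from 435, 315 and 351 to 987, 969 and 1098 CPM (1.47, SE 0.16, adjusted p = 3.80e-05), Pdia3, its partner oxidoreductase, from 1306, 1033 and 983 to 2015, 1890.3 and 1923 CPM (0.81, SE 0.14), and Erap1, which trims peptides in the ER, from 79.3, 66.2 and 63.4 to 122, 133 and 121 CPM (0.85, SE 0.13). Psme2, a subunit of the interferon-induced proteasome activator, read 173, 92.7 and 83.1 CPM in naive and 233, 295 and 226 CPM in ID8 libraries (1.11, SE 0.30), and its adjusted p rose from 0.0240 to at most 0.109 when a library was left out. With all libraries H2-K1, H2-D1, B2m, Tap1, Tap2 and Tapbp were not called, at log2 changes from -0.12 to 0.29. Of these, Tap1 was called without naive library 1 (0.88, adjusted p = 0.0189). The count in this list was 12 without naive library 1 and 3 or 4 without any other Tim4KO library.

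Class II presentation and costimulation gave 1 rise and 3 falls among 17 genes (23.5% called, against 16.6% of all genes), and 0 falls without naive library 2 or ID8 library 2. Ifi30, the lysosomal thiol reductase that unfolds antigens, rose from 66.1, 56.1 and 69.8 to 139, 133 and 152 CPM (1.14, SE 0.24, adjusted p = 0.00610). Ctss, cathepsin S, read 2341, 2436 and 1873 CPM in naive and 1481, 1348 and 1498 CPM in ID8 cells (-0.62, SE 0.14), and its adjusted p reached 0.0872 with 1 library left out. Cd86, a ligand of CD28, was lower at -0.58, SE 0.17, but called in 0 of the 6 fits with a Tim4KO library left out (adjusted p up to 0.204). In a list of inhibitory ligands 3 of 17 genes rose and 1 fell (23.5% called), which became 1 or 2 and 0 to 2 with a library left out. Lgals3, galectin-3, from this list, went from 268, 221 and 242 to 668, 546 and 619 CPM (1.33, SE 0.14, adjusted p = 3.49e-05).

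**Figure D3:**
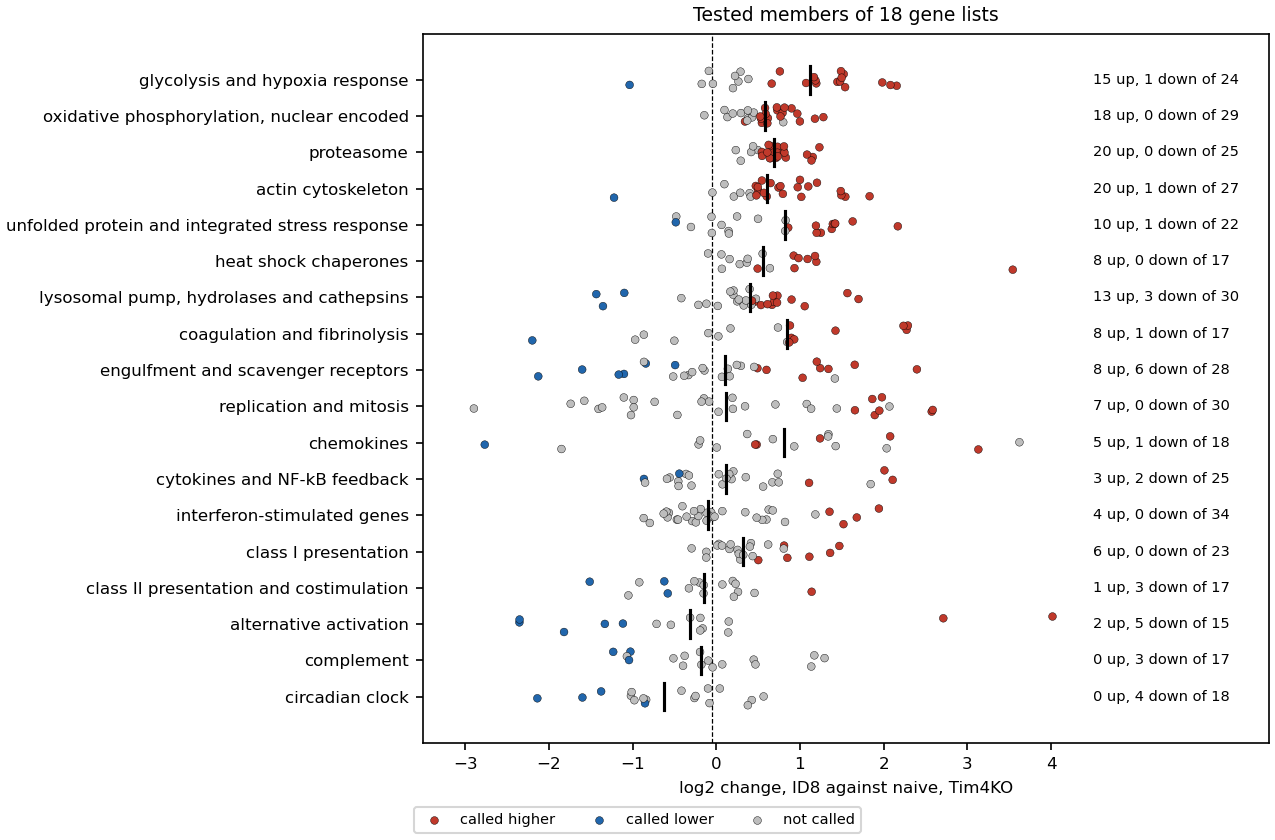
Log2 change (x axis, ID8 against naive) of each tested member of 18 gene lists in Tim4KO macrophages, with red for genes called higher, blue for called lower and grey for not called. Black bars are list medians, the dashed line is the median over all genes (-0.05), and the counts stand at the right. Proteasome members all lie above that line, and the replication and mitosis list spreads to both sides.

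Replication genes separated into parts that changed and parts that did not pass the test. The 6 subunits of the MCM helicase, which unwinds DNA at replication origins, all rose, with log2 changes from 1.86 to 2.59. Mcm2 read 17, 10.7 and 18.4 CPM in naive and 86.5, 117 and 74.8 CPM in ID8 libraries (2.57, SE 0.27, adjusted p = 6.64e-05), Mcm3 35.9, 37.4 and 45.7 and 133, 182 and 119.7 CPM (1.86, SE 0.22, adjusted p = 8.56e-05), Mcm4 32.1, 31.3 and 32.9 and 109, 146 and 103 CPM (1.89, SE 0.24), Mcm5 17.7, 13.2 and 19.1 and 91, 125 and 87.9 CPM (2.59, SE 0.41) and Mcm6 68.6, 52.3 and 61.8 and 225, 299 and 198 CPM (1.98, SE 0.25). Within each gene ID8 library 2 was highest. Summed over the 6 subunits the level was 191, 164 and 202 CPM in naive and 715, 974 and 649 CPM in ID8 cells. The licensing factor gene Cdt1 (1.66, SE 0.37, adjusted p = 0.0108) and Mcm7 (1.95, SE 0.43, adjusted p = 0.0132) were the remaining called members of the list, 7 of 30 in all, and without naive library 2 their adjusted p was 0.0556 and 0.0706. Both were named after their values were seen. The 7 calls were 23.3% of the list, against 11.5% of all genes called higher. Leaving out naive library 2, naive library 3 or ID8 library 2 left 5 calls.

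Of the mitotic genes in the same list (15 genes, grouped after their values were seen), 0 were called in either direction, and the smallest adjusted p among them was 0.259. Mki67, the proliferation antigen Ki-67, read 16.9, 49.3 and 60.4 CPM in naive and 19.8, 23.1 and 21.1 CPM in ID8 libraries, and Ccnb1, cyclin B1, 4.26, 10.5 and 14.8 and 2.23, 3.32 and 3.34 CPM. Summed over the 15 genes the level was 104, 230 and 319 CPM in the naive libraries and 121, 145 and 115 CPM in the ID8 libraries. Naive libraries 2 and 3 therefore stood above all ID8 libraries, and naive library 1 below them. The median log2 change of these genes was -0.99, and that of Mki67 had an SE of 1.24.

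RefSeq promoter windows were read for list members, from 250 bases before to 50 after the start of transcription (assembly GRCm38.p6). The E2F family drives many replication genes through sites whose core was searched here as TTTCCCGC or TTTGGCGC on both strands, matches of which may overlap. Of all 27025 genes with a window, 1.80% held a match. Among the called replication genes 6 had a window, and 5 of them (Mcm3, Mcm5, Mcm6, Mcm7 and Cdt1) held a match. Of all 25 list members with a window, 6 did, the sixth being Cdc6, which was not called (5.25, 6.52 and 9.24 to 26.8, 39.8 and 22.9 CPM, adjusted p = 0.0580). These letters do not occur in the window of Mcm2. The windows of 3 MCM genes that rose are printed to show the match, in capitals, on its background, each 5′ to 3′ on the coding strand.
Mcm3 (chr1:20820263-20820562, minus strand): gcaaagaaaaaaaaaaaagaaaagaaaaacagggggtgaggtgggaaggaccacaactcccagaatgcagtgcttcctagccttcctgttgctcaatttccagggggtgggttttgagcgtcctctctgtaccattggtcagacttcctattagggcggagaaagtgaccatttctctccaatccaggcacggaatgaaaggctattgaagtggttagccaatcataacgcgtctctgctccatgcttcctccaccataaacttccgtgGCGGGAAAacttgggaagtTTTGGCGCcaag
Mcm5 (chr8:75109259-75109558, plus strand): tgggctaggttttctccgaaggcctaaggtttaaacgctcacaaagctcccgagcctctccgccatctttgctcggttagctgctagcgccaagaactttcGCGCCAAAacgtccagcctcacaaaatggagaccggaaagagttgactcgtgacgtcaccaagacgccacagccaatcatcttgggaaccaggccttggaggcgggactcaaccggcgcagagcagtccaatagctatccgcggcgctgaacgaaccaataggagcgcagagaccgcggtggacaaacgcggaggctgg
Mcm6 (chr1:128359656-128359955, minus strand): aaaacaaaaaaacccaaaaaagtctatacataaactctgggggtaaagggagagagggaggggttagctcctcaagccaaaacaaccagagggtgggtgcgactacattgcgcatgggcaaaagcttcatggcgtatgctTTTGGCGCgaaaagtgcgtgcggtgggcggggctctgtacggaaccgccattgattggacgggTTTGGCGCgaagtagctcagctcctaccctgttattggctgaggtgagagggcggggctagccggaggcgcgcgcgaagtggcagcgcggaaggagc
In Mcm5 and Mcm6 every match lies before the start site, at positions -149, and -110 and -47. In Mcm3 both lie after it, at positions 20 and 39. A match is a run of letters and was not tested for binding.

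**Figure D4:**
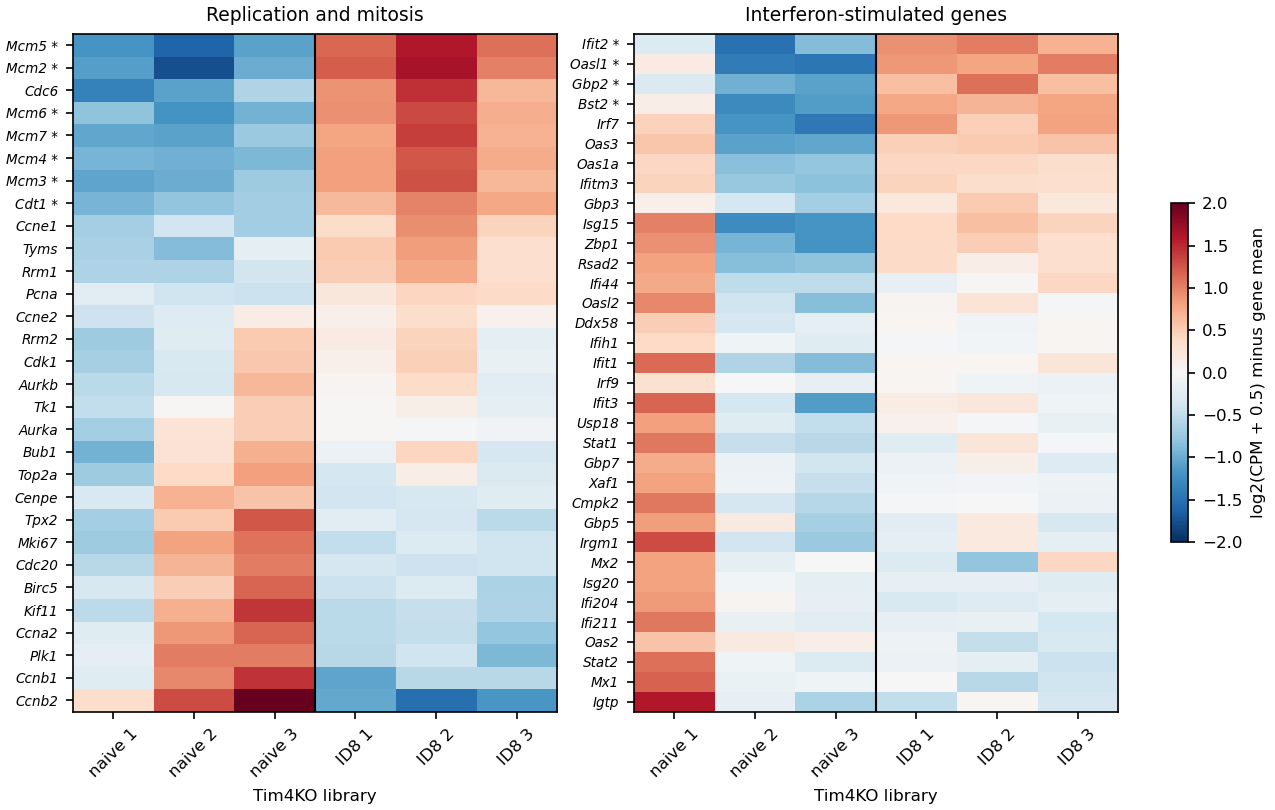
Level of each gene in each Tim4KO library, as log2(CPM + 0.5) minus the mean of that gene over the 6 libraries, for the replication and mitosis list (left, 30 genes) and interferon-stimulated genes (right, 34 genes). Rows are ordered by log2 change and an asterisk marks a called gene. MCM genes are high in all 3 ID8 libraries, most mitotic genes are highest in naive libraries 2 and 3, and naive library 1 is high for most interferon-stimulated genes.

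Among interferon-stimulated genes the result turned on 1 library. With all libraries, 4 of 34 rose and 0 fell (11.8%, against 16.6% of all genes), and the median log2 change was -0.09. Summed over the list, naive library 1 read 6366 CPM against 2858 and 2614 CPM in naive libraries 2 and 3, while the ID8 libraries read 5468, 5462 and 5229 CPM. Bst2, tetherin, which holds budding virus at the membrane, showed the order within 1 gene, at 182, 68.2 and 76.2 CPM in naive and 284, 265 and 287 CPM in ID8 cells (1.35, SE 0.30, adjusted p = 0.0108). Without naive library 1 the count was 12 of 34 and the median log2 change 0.53. Bst2 then had a log2 change of 1.97. Gbp2, a guanylate-binding GTPase, read 134, 84 and 77.4 and 248, 353 and 249 CPM (1.52, SE 0.33), with adjusted p = 0.055 without naive library 2. Irf7, the factor that amplifies the interferon response, was not called with all libraries (219.9, 70.6 and 59.5 and 292, 224 and 280.3 CPM, adjusted p = 0.113) and had a log2 change of 2.05 at adjusted p = 0.000118 without naive library 1. Irf7 was named after its values were seen. Sterol synthesis also went from 5 to 12 of 23 genes called higher without that library. The other 5 fits called 1 to 3 interferon-stimulated and 3 or 4 sterol genes higher. Whether naive library 1 or the other 2 represent naive Tim4KO cells was not tested.

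Most genes of glycolysis rose together, whichever library was left out. Of 24 genes on the list of glycolysis and the hypoxia response, 15 rose, 1 fell and 8 were not called. The median log2 change was 1.12, and the 6 fits without 1 Tim4KO library called 15 or 16 higher. Those that rose were glycolytic enzymes, the transporters Slc2a1 and Slc16a3, and Vegfa. Hif1a, Egln3, Ndrg1 and Bnip3, which are linked to hypoxia, were called in 0 of these 6 fits. Slc16a3, the lactate exporter MCT4, rose from 32.3, 18.8 and 24.8 to 118, 107 and 115 CPM (2.16, SE 0.19, adjusted p = 6.43e-06). Along the pathway, Aldoa, aldolase, rose from 419, 344 and 321 to 943, 1050.0 and 963 CPM (1.45, SE 0.13), Tpi1, triosephosphate isomerase, from 64.2, 46.7 and 49.1 to 154, 163 and 149 CPM (1.54, SE 0.14), and Pgk1, phosphoglycerate kinase, from 71.7, 54.9 and 58.9 to 249, 264 and 221 CPM (1.98, SE 0.16). Pgam1, phosphoglycerate mutase, rose from 39.2, 30.9 and 31.8 to 94.8, 96.8 and 93.1 CPM (1.48, SE 0.14). Pgk1 and Pgam1 share 52.8% and 34.9% of their 75-base stretches with other loci, so their counts are less certain. The member called lower was Pfkfb3, which makes the allosteric activator of phosphofructokinase. It read 30.6, 68.3 and 58.3 CPM in naive and 27.4, 22.8 and 26.3 CPM in ID8 libraries (-1.03, SE 0.25, adjusted p = 0.0127). Without naive library 2 its adjusted p was 0.0709, and it was named after its values were seen.

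Nuclear genes of oxidative phosphorylation rose in 18 of 29 cases and fell in 0, with a smaller median log2 change of 0.58. Cox5a, a subunit of cytochrome c oxidase, rose from 66.3, 31.8 and 41.3 to 115, 113 and 111 CPM (1.28, SE 0.22), Cyc1, cytochrome c1, from 64.1, 47.7 and 52.2 to 109.9, 112 and 106 CPM (1.0, SE 0.13, adjusted p = 0.000157), and Atp5b, the catalytic subunit of ATP synthase, from 379, 286 and 274 to 579, 605 and 568 CPM (0.90, SE 0.13). Naive library 1 was again the highest naive library, and 23 genes were called without it. The other 5 fits gave 14 to 17. Of this list 65.5% was in the shortest group by length, and the part of length was not tested.

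Lipid genes moved in both directions. Scd1 and Scd2, desaturases that make monounsaturated fatty acids, rose from 0.902, 1.07 and 0.901 to 9.61, 8.40 and 8.41 CPM (3.21, SE 0.30, adjusted p = 9.09e-06) and from 3.44, 5.33 and 6.08 to 23.6, 24.5 and 23.4 CPM (2.26, SE 0.26). Plin3, a lipid droplet coat protein, rose from 52.6, 46.2 and 47.4 to 93.8, 86.7 and 90.1 CPM (0.89, SE 0.12). Pltp, the phospholipid transfer protein, fell from 605, 573 and 703 to 369, 266 and 356 CPM (-0.92, SE 0.15), as did Apoe. In all, 4 of 26 genes of cholesterol efflux and lipid storage rose and 6 fell. Mvd, which makes isopentenyl diphosphate in sterol synthesis, rose from 17.6, 12.2 and 13.5 to 48.6, 47.5 and 44.8 CPM (1.70, SE 0.15, adjusted p = 6.56e-06).

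Genes of protein folding and amino acid supply were among those that rose. In the list of the unfolded protein and integrated stress responses, 10 of 22 genes were higher and 1 lower, with a median log2 change of 0.83. Pdia6, a disulfide isomerase of the ER, rose from 446, 310.0 and 391 to 1040.3, 1029 and 991 CPM (1.42, SE 0.15, adjusted p = 3.49e-05), and Pdia4 from 196, 156 and 171 to 467, 465 and 441 CPM (1.39, SE 0.18). Psat1, an enzyme of serine synthesis, rose from 14.7, 6.92 and 12.2 to 51.3, 57.1 and 46.6 CPM (2.17, SE 0.25), and the mitochondrial folate enzymes Shmt2 and Mthfd2 from 19.4, 11.5 and 14.4 to 31.4, 40.5 and 32.2 CPM (1.19, SE 0.18) and from 12, 9.19 and 6.98 to 21.9, 31 and 20.2 CPM (1.38, SE 0.22). The lower gene was Dnajb9, an ER co-chaperone, at 183, 153 and 170.4 and 124, 117 and 121 CPM (-0.48, SE 0.13, adjusted p = 0.0167, and 0.140 without ID8 library 2). Hsp90b1, the ER chaperone GRP94, was higher by 0.86, SE 0.15. Dnajb9 and Hsp90b1 were named after their values were seen.

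The ER stress response element was searched as CCAAT followed after 9 bases of any kind by CCACG, on both strands of the same windows, where 0.137% of 27025 genes held it. Of the 10 called members with a window, 3 did (Hsp90b1, Pdia6 and Creld2, the last with an adjusted p of 0.0869 without naive library 2), and of all 20 members 4, the fourth being Hspa5, which was not called. A pair of these windows is printed with the element in capitals.
Pdia6 (chr12:17266339-17266638, plus strand): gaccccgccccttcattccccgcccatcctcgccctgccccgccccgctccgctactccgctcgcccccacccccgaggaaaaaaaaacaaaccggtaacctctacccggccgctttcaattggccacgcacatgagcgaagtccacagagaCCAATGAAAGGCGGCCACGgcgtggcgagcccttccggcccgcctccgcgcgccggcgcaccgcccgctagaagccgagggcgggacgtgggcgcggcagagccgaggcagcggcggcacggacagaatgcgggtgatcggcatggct
Hsp90b1 (chr10:86705395-86705694, minus strand): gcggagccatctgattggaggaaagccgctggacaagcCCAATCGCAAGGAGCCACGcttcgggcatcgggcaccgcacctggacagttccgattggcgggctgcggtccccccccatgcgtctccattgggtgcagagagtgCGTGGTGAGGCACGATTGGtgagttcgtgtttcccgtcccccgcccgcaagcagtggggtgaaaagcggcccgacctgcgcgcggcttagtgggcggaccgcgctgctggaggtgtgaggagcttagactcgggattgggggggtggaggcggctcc
The element starts at position -98 in Pdia6 and at -212 and -107 in Hsp90b1. Pdia4 and Sdf2l1, which rose by similar amounts (1.39, SE 0.18 and 1.42, SE 0.22), hold no such run of letters in this window.

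Heat shock chaperones of the cytosol and mitochondria rose in 8 of 17 genes and fell in 0. Hsp90aa1 read 107, 85.2 and 84.8 CPM in naive and 187, 208 and 195 CPM in ID8 libraries (1.09, SE 0.19, adjusted p = 0.00153), with 42.8% of its 75-base stretches shared with other loci. Hsp90ab1 rose from 695, 556 and 581 to 1141, 1216 and 1145 CPM (0.93, SE 0.15). Without naive library 2 the count was 4. Ribosome biogenesis and polyamine genes rose in 6 of 22 cases (27.3%, against 11.5% of all genes called higher). Odc1, ornithine decarboxylase, which uses the ornithine that arginase makes, rose from 22.3, 16 and 18 to 44, 50.8 and 43.6 CPM (1.29, SE 0.23, adjusted p = 0.00175). With background counts as a covariate 15 of the 22 ribosome biogenesis and polyamine genes were called.

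Among 18 chemokines, 5 rose and 1, Cxcl12, fell (33.3% called, against 16.6% of all genes), and 3 rose without naive library 2, naive library 3, ID8 library 1 or ID8 library 3. Ccl5 read 4.67, 1.46 and 2.82 CPM in naive and 30.7, 21.4 and 28.8 CPM in ID8 cells (3.13, SE 0.53, adjusted p = 0.00319), and Ccl4 0.328, 0.533 and 1.63 and 3.46, 3.41 and 4.67 CPM (2.08, SE 0.41). Of 25 cytokines and feedback genes of NF-kB, 3 rose and 2 fell (20% called), which became 1 or 2 and 0 or 1 with a Tim4KO library left out. Il6 rose from 3.44, 1.46 and 2.03 to 8.38, 8.58 and 11.5 CPM (2.01, SE 0.36, adjusted p = 0.00200). Acod1, which makes itaconate, was called with all libraries (3.61, 3.73 and 3.10 and 11.7, 17.5 and 15.4 CPM, 2.11, SE 0.61, adjusted p = 0.0451). It was called in 0 of the 6 fits with a Tim4KO library left out, where the adjusted p reached 0.157. Il10, Il12a, Il12b, Csf2 and Csf3 were too low to be tested.

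Coagulation genes rose in 8 of 17 cases and fell in 1 (52.9% called, against 16.6% of all genes). Anxa2, annexin A2, a surface receptor for plasminogen, rose from 261, 231 and 214 to 1203, 1056 and 1159 CPM (2.27, SE 0.19, adjusted p = 5.83e-06), and its partner S100a10 from 223, 121 and 159 to 479, 409 and 465 CPM (1.42, SE 0.19). F10 and F7, coagulation factors, rose from 391, 345 and 283 to 623, 643 and 631 CPM (0.90, SE 0.13) and from 101, 81.1 and 98.1 to 172, 201 and 162 CPM (0.93, SE 0.14), and Plaur, the urokinase receptor, from 330.1, 264 and 189.7 to 507, 429.9 and 505 CPM (0.88, SE 0.17). F13a1 was the member that fell. Complement genes gave 0 rises and 3 falls among 17 (17.6% called, close to the 16.6% of all genes), and 7 falls with upper-quartile scaling. Cfp, properdin, which stabilises the alternative pathway convertase, fell from 4448, 4327 and 4175 to 2198, 2006 and 2088 CPM (-1.04, SE 0.14, adjusted p = 0.00018), and C4b from 6456, 7555 and 6261 to 3268, 3356 and 3338 CPM (-1.02, SE 0.14), sharing 22.7% of its 75-base stretches with C4a.

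Proteases, matrix genes and repair factors showed 7 rises and 6 falls among 27, and 2 falls without ID8 library 2. Adam8, a membrane metalloproteinase, rose from 58.5, 59.8 and 71.8 to 259.9, 292 and 244 CPM (2.06, SE 0.14, adjusted p = 1.05e-06), Mmp14, which activates other metalloproteinases at the cell surface, from 1.97, 2.13 and 2.98 to 17.9, 18.8 and 18.6 CPM (2.93, SE 0.43), and Vcan, the proteoglycan versican, from 6.07, 4.53 and 6.25 to 16, 24.4 and 17.7 CPM (1.76, SE 0.28). Hgf, hepatocyte growth factor, fell from 13.8, 26.1 and 17.1 to 5.30, 4.61 and 4.50 CPM (-1.97, SE 0.33). Alternative activation genes gave 2 rises, Arg1 and the transglutaminase gene Tgm2 (9.10, 7.59 and 16.8 to 71.6, 81.3 and 72.6 CPM, 2.71, SE 0.35), and 5 falls among 15 (3 falls without naive library 3, ID8 library 2 or ID8 library 3). Clec7a, the beta-glucan receptor Dectin-1, was one of the latter, from 117, 162 and 160.2 to 40.6, 42.3 and 41.5 CPM (-1.82, SE 0.18, adjusted p = 1.67e-05). So members of that list went both ways.

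Receptors for cytokines and growth factors were lower in 6 and higher in 1 of 25 tested genes. The lower count was 2 without ID8 library 2 and 4 without naive library 2. Csf3r, the G-CSF receptor, fell from 181, 249.5 and 229.9 to 81.8, 81.8 and 80.2 CPM (-1.44, SE 0.16, adjusted p = 4.80e-05), and Il1r1, the IL-1 receptor, from 2.79, 4.26 and 4.56 to 0.692, 0.831 and 0.807 CPM (-2.30, SE 0.31). Csf2ra, the GM-CSF receptor alpha chain, was the one that rose, from 279.6, 232 and 254 to 465, 415 and 420.3 CPM (0.77, SE 0.12). Ifngr1, a chain of the interferon-gamma receptor, had -0.67, SE 0.13, with adjusted p = 0.0532 without ID8 library 2. Smad7, an inhibitor of TGF-beta signalling, fell from 5.08, 6.26 and 4.90 to 1.61, 1.85 and 2.02 CPM (-1.55, SE 0.30). Csf3r also carried most of the summed neutrophil markers, which were 190 to 257 CPM in naive and 102 to 115 CPM in ID8 libraries.

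Prostaglandin and leukotriene genes gave 4 rises and 4 falls among 18. Without naive library 2, naive library 3 or ID8 library 1 the rises were 1, and the falls ranged from 2 to 3 over the 6 fits. Hpgd, which inactivates prostaglandins, fell from 3.20, 6.66 and 5.52 to 0.769, 0.554 and 0.692 CPM (-2.90, SE 0.46, adjusted p = 0.000759), and Ptger4, the prostaglandin E2 receptor EP4, from 90.5, 97.9 and 121 to 40.5, 32.8 and 44.8 CPM (-1.39, SE 0.22). Tbxas1, thromboxane synthase, rose from 139, 143 and 151 to 241, 231 and 224 CPM (0.68, SE 0.11). Alox15, the abundant lipoxygenase of these cells, read 13116, 10819.6 and 9861 CPM in naive and 7694, 8159 and 7199 CPM in ID8 libraries (-0.55, SE 0.14). It was called in 1 of the 6 fits with a Tim4KO library left out (adjusted p up to 0.103). Tfrc, the transferrin receptor, rose from 12.2, 7.46 and 11.3 to 83.4, 87 and 77.8 CPM (2.98, SE 0.40, adjusted p = 0.000833), while Trf itself fell.

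Clock genes were called lower in 4 of 18 cases and higher in 0 (22.2% called, against 16.6% of all genes). The count was 2 without naive library 2 or without any 1 of the ID8 libraries. Dbp, a transcription factor with a daily rhythm, read 8.94, 41.5 and 16.7 CPM in naive and 6.38, 3.97 and 4.73 CPM in ID8 libraries (-2.14, SE 0.45), and Per3 11.5, 35.4 and 26.9 and 7.69, 8.40 and 8.18 CPM (-1.60, SE 0.34, adjusted p = 0.00648). Naive library 2 held the highest Dbp and Per3 levels, and without it the log2 change of Dbp was -1.33. The E-box CACGTG, searched in the promoter windows, was held by 8.09% of 27025 genes. It was found in 1 of 4 called clock genes with a window and in 5 of all 17 members. The hour at which mice were sampled is not given in the sources used here, and its part in the lower clock genes was not tested.

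The Tim4KO response was set against the WT response by an interaction term, the Tim4KO log2 change minus the WT log2 change. At an adjusted p under 0.05, 0 of 15943 genes were called by edgeR (0%), 1186 had an unadjusted p under 0.05, and DESeq2 called 11. Of the 2642 genes called in Tim4KO cells, 2602 (98.5%) had the same sign in WT cells, and 2107 were also called there. The same fit called 5067 genes in WT cells. The share with the same sign over all tested genes was not counted. Timd4 had the smallest interaction p, with an interaction of -1.93 and an adjusted p of 0.0888. Hsp90aa1 came next: its WT levels were 87.3, 88.4 and 87.4 CPM in naive and 609, 603 and 327 CPM in ID8 cells, a log2 change of 2.55 against 1.09 in Tim4KO cells (adjusted p of the difference = 0.432). Tnfrsf13b, the receptor TACI, changed by -0.59, SE 0.11 in Tim4KO and by -1.41 in WT cells, with 33.5, 35.3 and 30.1 CPM in Tim4KO naive and 23.1, 21.6 and 21.1 CPM in Tim4KO ID8 libraries (adjusted p of the difference = 0.432). Cd244a, an immune receptor of the SLAM family, read 103, 108 and 92 and 102, 97.4 and 88.7 CPM in Tim4KO cells and had a WT log2 change of 0.82 (adjusted p of the difference = 0.432). For 2610035D17Rik the changes were -0.68, SE 0.22 in Tim4KO (adjusted p = 0.0461) and -2.31 in WT cells. Its Tim4KO change was called in 1 of the 6 fits with a Tim4KO library left out (adjusted p 0.255 at most).

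Among the genes with large rises, Vat1 was higher by 3.69 in Tim4KO and by 1.21 in WT cells, on the log2 scale, with an adjusted p of the difference of 0.481. Stfa3 rose by 5.33 and 7.03, and Lcn2 by 3.88 and 5.15, with adjusted p of the difference of 0.668 and 0.668. None of these differences passed the threshold. List medians are given side by side, with no test. The replication and mitosis list had a median log2 change of 0.11 in Tim4KO (-0.11 without naive library 1) and 2.03 in WT cells, and interferon-stimulated genes had -0.09 in Tim4KO (0.53 without naive library 1) and 1.06 in WT cells. Alternative activation genes stood at -0.31 and -1.29, and genes of small peritoneal macrophages and dendritic cells at 0.11 (-0.04 without naive library 1) and -0.77. No member of these lists was called in the interaction.

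**Figure D5:**
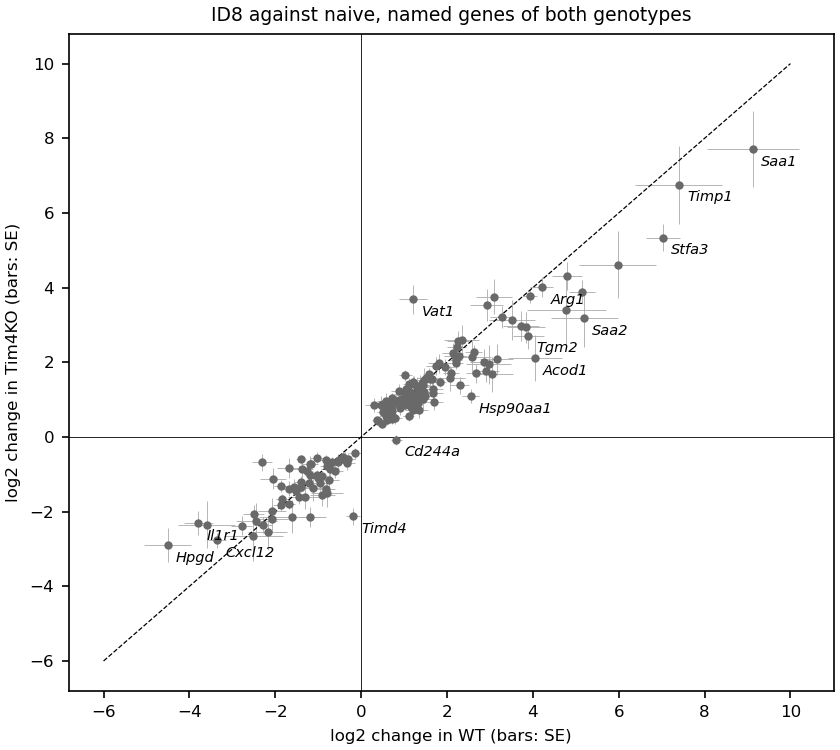
Log2 change in Tim4KO (y axis) against log2 change in WT cells (x axis), ID8 against naive, for the 186 named genes, with bars for the SE of each. The dashed line marks equal change. Most genes lie near it, and Timd4 and Vat1 lie off it, while no gene passed the test of the difference.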

How the data were processed

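Per the labels' protocols, RNA of the sorted cells was isolated with an RNeasy micro kit, and libraries were made from PCR-amplified cDNA (SMART-Seq mRNA LP kit). The authors deposited raw counts of reads per Ensembl gene as 1 table of 57010 genes and 12 libraries. The values were whole numbers whose totals differed between libraries. The submitters' processing notes name FastQC, STAR 2.5 and the builds mm10 and GRCm39 without a role. The counter, annotation, strand and multi-mapping rules are not given in the sources used here. Reads without molecular identifiers are not independent molecules, so the depth gives counting error only.

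Gene names came from GENCODE vM21 (52029 of 57010 IDs matched). The test was that of edgeR 4.0.16, run under R 4.3.3 (TMM, filterByExpr, robust quasi-likelihood F tests, 4 group means, 8 residual degrees of freedom, Benjamini-Hochberg adjustment over 15943 genes, two-sided). On simulated data (15153 genes) this recovered 92% of 100 genes changed by 2 and 73% of 100 changed by 1 on the log2 scale, with 10 false calls. The changed genes were drawn from those averaging above 2 CPM, and each gene had the same spread in all groups. These shares therefore do not cover genes near silence or the wider spread of the naive libraries. Replicate pairs of a group differed beyond sampling noise (chi-square per degree of freedom 5.40 to 29.5), so no library was counted as a repeat.

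The members and all 38 gene lists were chosen with earlier results of these data known. Named genes were Timd4, the 12 largest rises and falls among called genes whose normalized count averaged 50 or more and whose groups did not overlap, up to 5 called members of each list by p, the 5 most abundant called genes each way, and the 5 smallest interaction p. Alternatives were RLE or upper-quartile scaling, no filter, a mean count of at least 50, DESeq2 1.42.0, limma 3.58.1 voom, a replicate block, a background covariate, Tim4KO libraries alone and leaving out each library.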

Additional observations from a re-analysis of the deposited data

How the results depend on the processing

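The count of 2642 genes called in Tim4KO cells lay between 2329 (no filter on low counts) and 3827 (Tim4KO libraries alone) under the planned changes of scaling, filter and tool: 2546 with RLE size factors, 2716 with upper-quartile scaling, 2914 with a mean count of at least 50, 3161 with DESeq2, 2553 with limma voom and 2935 with background counts as a covariate. Leaving out 1 library gave 1222 to 3595 calls, the lowest without Tim4KO naive library 2 and the highest without WT ID8 library 3. The share of calls that were higher was 69.5% with TMM and 48.7% with upper-quartile scaling. The interaction had 0 calls with edgeR and 73 with no filter, 11 with DESeq2 and 2 with the background covariate. Leaving out 1 library gave 0 to 368 interaction calls, the highest without WT ID8 library 3, and the cause was not tested. Same-numbered naive and ID8 libraries did not deviate together (correlations of -0.04, -0.10 and 0.08), so the numbers were not taken to pair them. With the replicate block 2562 genes were called, 2438 of them among the 2642, and 0 in the interaction. Of the 185 named genes that were called, 135 kept the call in all 6 fits that left out a Tim4KO library. Under the alternatives of scaling, filter, tool, block, covariate or Tim4KO libraries alone, 162 kept the call throughout. Fits that left out a WT library entered neither of these counts. Of the 185 genes, 0 changed direction. Depth limited genes such as Timp1, with 0, 0 and 5 naive counts.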

Other observations

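Gene groups not yet described gave the following values in Tim4KO cells. Pattern receptors and lectins were higher in 5 and lower in 7 of 28 tested genes (2 or 3 and 4 to 6 with a Tim4KO library left out). Treml4, a relative of Trem1, rose from 0.656, 0.932 and 0.394 to 3.07, 2.77 and 2.48 CPM (log2 change 2.13, SE 0.44), and Clec5a, a lectin receptor of myeloid cells, fell from 38.7, 41.4 and 30.1 to 13.4, 18.2 and 15.5 CPM (-1.22, SE 0.21). Fcgr2b, the inhibitory Fc receptor, fell from 260.0, 404 and 354 to 190.0, 158 and 192 CPM (-0.91, SE 0.17, edgeR adjusted p = 0.00259), in a list of 7 tested Fc receptors with 1 rise and 2 falls (0 or 1 and 1 or 2 with a library left out). Targets of NRF2, the regulator of antioxidant genes, were higher in 7 and lower in 1 of 19, but in 3 without naive library 2, and the lower call was lost in all 6 fits without a Tim4KO library. Srxn1, sulfiredoxin, rose from 18, 19.2 and 16.9 to 34.6, 41 and 35.7 CPM (1.04, SE 0.15, adjusted p = 0.000305).

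Iron genes were higher in 5 and lower in 1 of 14 (3 or 4 and 0 or 1 with a library left out), with Steap3, an endosomal ferric reductase, at 36.5, 31.7 and 37.1 CPM in naive and 59.9, 56.7 and 60.6 CPM in ID8 libraries (0.75, SE 0.12). In the BCL2 family 5 rose and 2 fell of 16. Only 2 rose without naive library 2 or ID8 library 1, and 0 fell without naive library 2, ID8 library 1 or ID8 library 2. Bak1, an effector of apoptosis, rose from 28.9, 13.6 and 20.4 to 51, 51.3 and 57.1 CPM (1.33, SE 0.27). Bcl2a1a (1.23, 1.33 and 1.07 to 4.07, 4.34 and 3.34 CPM, 1.70, SE 0.25) shares 55.2% of its 75-base stretches with its near copies, so its counts may be split among them. Targets of the glucocorticoid receptor gave 3 rises and 2 falls among 14 (2 or 3 and 1 to 3 with a library left out), and Sesn1 fell from 212, 233 and 221 to 143, 139 and 123 CPM (-0.71, SE 0.13). Of 21 immediate early genes 1 was called higher and 1 lower (9.52%, against 16.6% of all genes), and neither held its call in every fit without 1 Tim4KO library.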
